A study of Mus musculus with 4 samples.

Results

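The genes described here are 10 genes of MHC antigen presentation, chosen by symbol among the 27027 entries of a liver count table, and all 10 had an entry. They were H2-Aa, H2-Ab1 and H2-Eb1 (chains of the MHC class II molecules), Cd74 (the invariant chain), H2-DMa and H2-DMb1 (the peptide editor of class II), Ciita (the class II transactivator), H2-K1 and H2-D1 (class I heavy chains) and B2m (the class I light chain). The study asked which genes are expressed in mouse liver while acute injury by acetaminophen (APAP) resolves. Male C57BL/6J mice, aged 9 to 12 weeks, were fasted for 10 h and then injected intraperitoneally with 0.9% NaCl (control) or with APAP at 300 mg/kg, and livers were taken after 24 h or 48 h. No allele was altered in any of the mice. Per the methods, livers were flushed with saline buffer before RNA was isolated, and RNA was pooled in equal shares within each group, from 6 mice in each control pool and from 7 mice in each APAP pool. Each pool gave 1 library of 3′ mRNA ends, so that 4 libraries stood for 4 groups. With 1 library per group there was no replicate check, the spread between mice could not be seen, and no test was made. Every interval below is a 95% interval that covers counting error only, and each fold compares libraries, not conditions.

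MHC class I molecules display peptides from inside the cell to CD8 T cells and are made by nearly all nucleated cells. Their peptides are cut by the proteasome, carried into the endoplasmic reticulum by the TAP transporter and loaded onto a heavy chain bound to B2m. MHC class II molecules display peptides from endosomes to CD4 T cells and are made chiefly by dendritic cells, B cells and macrophages. The invariant chain guides class II chains to endosomes, proteases degrade it there, and H2-DM exchanges its remnant for peptide. In liver, Kupffer cells, dendritic cells and sinusoidal endothelial cells are known to carry class II, while hepatocytes carry class I at a low level. Promoters of both classes are known for a module of X, X2 and Y boxes to which RFX, CREB and NF-Y factors bind, and on which CIITA (class II) or NLRC5 (class I) act.

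The letters of this module were looked up in RefSeq promoters (GRCm38.p6, 250 bases before to 50 after a start site), which were found for 7 of the 10 genes. The other 3 were H2-Ab1, Cd74 and Ciita. In 6 of the 7 genes, TGANG (the core of the X2 box) stood 19 to 21 bases before ATTGG (the Y box) on the strand of the gene. Counted on either strand, this spacing was found in 0.947% of 32851 promoters. That window was set to the spread of these genes, and with 10 to 40 bases between both motifs the share was 6.25%. H2-DMa was the gene without it. Shown 5′ to 3′ on the strand of the gene, with the X letters (GNAACT, where shown), TGANG and ATTGG in capitals, the stretches are these.
H2-Aa, chr17:34287863-34287913, minus strand: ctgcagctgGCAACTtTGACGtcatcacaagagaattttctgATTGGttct
H2-Eb1, chr17:34305768-34305816, plus strand: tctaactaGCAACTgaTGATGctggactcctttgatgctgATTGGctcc
H2-DMb1, chr17:34153105-34153134, plus strand: TGATGctaggctgattcactcagtgATTGG
H2-K1, chr17:34000355-34000404, minus strand: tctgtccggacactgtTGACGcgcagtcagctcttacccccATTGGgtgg
H2-D1, chr17:35262993-35263022, plus strand: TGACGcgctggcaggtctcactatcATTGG
B2m, chr2:122147593-122147642, plus strand: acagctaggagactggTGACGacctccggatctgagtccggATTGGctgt

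The distance between both motifs was 21 bases in H2-Aa, 19 bases in H2-Eb1 and 20 bases in each of the other 4 genes. GNAACT followed by ATTGG at a distance of 10 to 40 bases was found in H2-Aa, H2-Eb1 and H2-DMb1 (3 of 7 genes), the class II genes of the set shown, and in 1.34% of all promoters. Taken singly, these letters were common on either strand, with GNAACT in 42.8%, TGANG in 89.4% and ATTGG in 37.4% of promoters, and in all 7 genes. AANNGAAA, letters of an interferon-stimulated response element (ISRE), was found on either strand in 5 of the 7 genes and in 23.9% of all promoters, and it can overlap GNAACT. GGGATTCCC, a kB letter string, was found in H2-K1 and H2-D1 and in 0.353% of promoters. In both class I genes it stood beside an ISRE-like match read from the other strand, and the 2 stretches are shown because they are so alike, with the kB and ISRE-like letters in capitals. A match is a description of letters, not a binding site.
H2-K1, chr17:34000429-34000458, minus strand: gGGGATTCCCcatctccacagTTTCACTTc
H2-D1, chr17:35262923-35262952, plus strand: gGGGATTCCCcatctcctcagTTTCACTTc

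**Figure D1:**
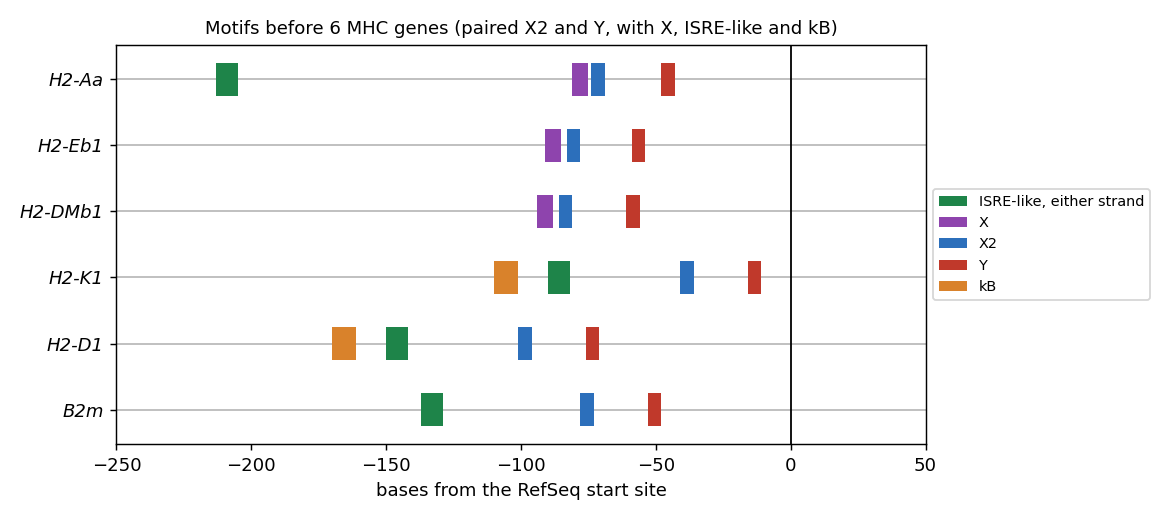
Positions of motif letters in the RefSeq promoters of 6 MHC genes, on a linear axis of bases from the start site (black line at 0). Each coloured block is 1 motif match (X only where it lies directly before the pair), and the X2 and Y blocks keep nearly the same distance in all 6 genes, with 19 to 21 bases between them.

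The libraries held 4859661 and 5191990 reads on genes in control libraries (24 h, 48 h) and 5698778 and 4938164 in the APAP libraries. Levels are given below as reads per 1000000 reads of the library (RPM), where 3 reads correspond to between 0.526 and 0.617 RPM. Folds are APAP over the control pool of the same time, after division of counts by median-of-ratios size factors. Scaling to library totals instead raised every fold by 0.19 (log2) after 24 h and by 0.27 (log2) after 48 h. In accordance with the labelled tissue, 8 of 8 hepatocyte markers were measured, and their summed normalized reads, mostly of Alb and Apoa1, ranged from 410957 to 464721 over the 4 libraries. Among them Fabp1, a fatty acid carrier, was called lower after APAP (0.346 and 0.124), and Ttr, transthyretin, was at 0.561-fold at 24 h.

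Of the 10 genes, 9 reached a mean of 10 normalized reads and could be called, and Ciita did not. None of the 9 was at least 2-fold higher or lower with an interval on 1 side of 1, at either time. Among all 12113 genes tested, 4.89% were called higher and 4.99% lower at 24 h, and 4.79% and 4.99% at 48 h. At a threshold of 5-fold, as used in the study, the count was also 0 of 9 at both times, where 0.652% of all genes were higher and 0.636% lower at 24 h, and 0.553% and 0.768% at 48 h. Small differences were nevertheless seen against counting error. At 24 h the interval lay below 1 for 6 of the 9 genes (H2-Aa, H2-Ab1, Cd74, H2-K1, H2-D1 and B2m) and above 1 for 0. Of all genes, 18.3% had an interval below 1 and 15.4% above it. The interval narrows as reads rise, and the class I genes had 1343 to 11560 reads per library. Tested genes needed a mean of only 10 normalized reads, so the shares over all genes are not matched to these genes in read number. At 48 h the interval lay below 1 for 4 of the 9 (H2-Aa, H2-K1, H2-D1 and B2m) and above 1 for 0, against 18.9% and 13.9% of all genes. With library totals the interval stayed below 1 only for Cd74, H2-K1 and B2m at 24 h. At 48 h it then stayed below 1 only for H2-K1 and B2m, and that of H2-Eb1 lay above 1 (1.15 to 2.12). A fold of at least 1.5 with such an interval was reached by 1 gene at 24 h (B2m, lower; background 10.8% lower and 9.75% higher) and by 2 genes at 48 h (B2m and H2-K1, lower; background 10.9% lower and 8.71% higher). The median fold of the 9 genes was 0.711 at 24 h and 0.922 at 48 h, beside 1.01 and 0.990 for all genes tested. With library totals the medians were 0.809 and 1.11, beside 1.14 and 1.19 for all genes.

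**Figure D2:**
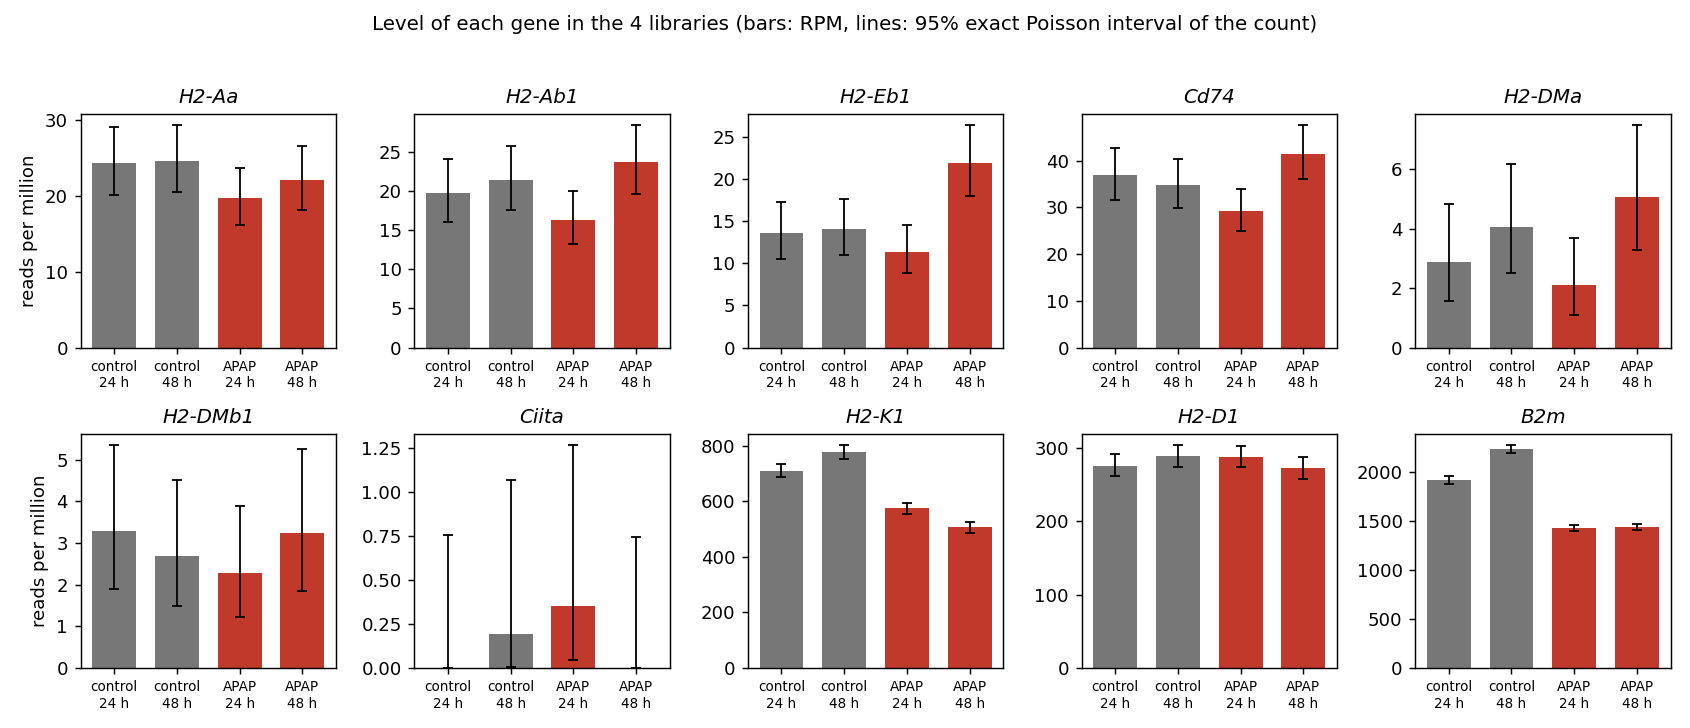
Level of each of the 10 genes in RPM (linear axis from 0, own scale per panel) in the control (grey) and APAP (red) libraries at 24 h and 48 h, 1 library per bar, with the 95% exact Poisson interval of the count as black line. B2m and H2-K1 lie lower in both APAP libraries than in both controls, H2-Eb1 is highest in the APAP library at 48 h, and Ciita is near 0 in all libraries.

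Class II chains were counted with 65 to 128 reads in each library. H2-Aa, which codes for the alpha chain of I-A and lies on chr17:34282744-34287823, was measured at 24.3 and 24.7 RPM in control libraries (24 h, 48 h) and at 19.7 and 22.1 RPM in the APAP libraries. Both APAP libraries were below both control libraries. Relative to control, the level was 0.711-fold (0.544 to 0.929) after 24 h and 0.745-fold (0.571 to 0.969) after 48 h, but with library totals both intervals reached 1 (0.619 to 1.06 and 0.687 to 1.17). In bulk liver, fewer cells of a type and less RNA per cell cannot be told apart, which holds for every gene below.

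H2-Ab1 (chr17:34257689-34269419) codes for the beta chain that pairs with H2-Aa. It was measured at 19.8 and 21.4 RPM in control libraries and 16.3 and 23.7 RPM in APAP libraries (24 h, 48 h). The APAP pool at 24 h was the lowest library. That at 48 h was the highest in RPM, but in normalized reads (109, 119, 79.2 and 110) the 48 h control was. The folds were 0.726 (0.540 to 0.976) and 0.922 (0.705 to 1.21), and the direction turned with library totals at 48 h, where the fold was 1.11, while at 24 h that interval reached 1 (0.614 to 1.11).

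H2-Eb1, the beta chain of I-E (chr17:34305867-34316674), had 66 and 73 reads in the control libraries, and 65 and 108 reads in APAP libraries (24 h, 48 h). In RPM these were 13.6, 14.1, 11.4 and 21.9. The APAP pool at 48 h stood above the other 3 libraries. The fold was 0.738 (0.516 to 1.06) after 24 h and 1.29 (0.953 to 1.77) after 48 h, or 1.56 (1.15 to 2.12) after 48 h with library totals. C57BL/6 mice are known to lack a working I-E alpha gene, so that this beta chain has no partner for the cell surface. Read per read of H2-Aa in the same library, a ratio that no scaling alters, H2-Eb1 was at 0.559 and 0.570 in control libraries and 0.580 and 0.991 in the APAP libraries. The ratio differed 1.04-fold (0.660 to 1.63) after 24 h and 1.74-fold (1.15 to 2.62) after 48 h. H2-Aa had the lowest 48 h fold (0.745) of the class II genes tested. Ratios of H2-Eb1 to the other class II genes were not computed, so the difference is shown against H2-Aa only.

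Cd74, the invariant chain, had 179 and 181 reads in control libraries, and 166 and 205 reads in APAP libraries (24 h, 48 h). Its level was 36.8 and 34.9 RPM in the control libraries and 29.1 and 41.5 RPM after APAP. It was lowest in the APAP pool at 24 h. The APAP pool at 48 h was highest in RPM, but in normalized reads (203, 194, 141 and 192) it lay below both control libraries. The fold was 0.695 (0.559 to 0.863) after 24 h and 0.990 (0.807 to 1.22) after 48 h, the latter 1.19 (0.970 to 1.46) with library totals. Its entry in the table also holds reads shared with an overlapping gene.

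The peptide editor was near the limit of the depth. H2-DMa (chr17:34119541-34139101) had 14 and 21 reads in the control libraries and 12 and 25 reads in APAP libraries (24 h, 48 h). H2-DMb1 (chr17:34153072-34160230) had 16 and 14 reads in the control libraries and 13 and 16 reads in the APAP libraries. Their folds had intervals that spanned 1 at both times, of 0.642 (0.271 to 1.5) and 1.04 (0.559 to 1.96) for H2-DMa and of 0.609 (0.269 to 1.35) and 0.999 (0.457 to 2.21) for H2-DMb1, the last being 1.20 with library totals. Taken as 1 count, both genes were at 0.624-fold (0.352 to 1.10) and 1.02-fold (0.637 to 1.66). A difference was therefore not detectable at this depth. Set against the 48 h control in place of its own, the 24 h fold of H2-DMa was 0.454 (0.204 to 0.966), which would be called lower and rests on the 21 reads of that pool.

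Ciita (chr16:10480059-10528418), which switches on class II transcription, had 0 and 1 reads in the control libraries and 2 and 0 reads in APAP libraries (24 h, 48 h). All 4 counts were at or under 3 reads, so no fold is given. A count of 0 allows up to 0.617 RPM in the control pool at 24 h and 0.608 RPM in the APAP pool at 48 h by the limit of 3 reads, and up to 0.759 and 0.747 RPM by the two-sided Poisson interval drawn in the plot of levels. The other class II genes were as sparse, since H2-DMb2 had 4, 9, 0 and 7 reads in the order control 24 h, control 48 h, APAP 24 h, APAP 48 h, and H2-Oa had 7, 0, 0 and 2. H2-Ob had 3, 0, 0 and 1 reads. None of these 3 was tested, and H2-Eb2, the remaining gene of that list, was not analysed here.

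Summed over the 6 genes H2-Aa, H2-Ab1, H2-Eb1, Cd74, H2-DMa and H2-DMb1, class II reads numbered 489 and 528 in the control libraries and 461 and 580 in APAP libraries (24 h, 48 h). As normalized reads these were 556, 566, 393 and 544. The sum was thus lowest in the APAP pool at 24 h, and that at 48 h lay beside the control libraries. The fold was 0.706 (0.621 to 0.804) after 24 h and 0.961 (0.852 to 1.08) after 48 h. With library totals the fold at 24 h was 0.804 (0.706 to 0.915) and that at 48 h turned to 1.15 (1.02 to 1.30). Fold at 48 h over fold at 24 h was 1.36 (1.14 to 1.62), and 1.41 (1.18 to 1.68) where each APAP pool was set against the other control pool. Between the control libraries (48 h over 24 h) these genes differed 1.02-fold for H2-Aa, 1.09-fold for H2-Ab1, 1.04-fold for H2-Eb1 0.954-fold for Cd74, 1.41-fold for H2-DMa and 0.825-fold for H2-DMb1.

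Of the class I genes, B2m and H2-K1 lay lower in the APAP libraries on both scalings. B2m (chr2:122147686-122153083) was measured at 1916 and 2227 RPM in control libraries and 1429 and 1433 RPM in APAP libraries (24 h, 48 h). Both APAP libraries lay below both control libraries. The fold was 0.655 (0.636 to 0.675) after 24 h and 0.535 (0.520 to 0.552) after 48 h, and 0.746 and 0.644 with library totals. The control libraries differed 1.17-fold (1.14 to 1.20) from each other. How much deeper the fold at 48 h was depended on the control pool. Set against the 24 h control, the folds were 0.655 (24 h) and 0.627 (48 h), and against the 48 h control 0.560 and 0.535. By the size factors the APAP libraries differed 0.957-fold (0.927 to 0.988, 48 h over 24 h), while in RPM the 48 h pool was not the lower.

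H2-K1, a heavy chain that lies at chr17:33996017-34000347, also lay lower after APAP. It was at 710 and 777 RPM in control libraries and 575 and 507 RPM in APAP libraries (24 h, 48 h). Here too the APAP libraries were below both control libraries, and the one at 48 h was the lowest. The fold was 0.711 (0.677 to 0.746) after 24 h and 0.542 (0.516 to 0.570) after 48 h, and 0.809 and 0.652 with library totals. With the control libraries exchanged the folds were 0.645 and 0.598.

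H2-D1 (chr17:35262730-35267499), the other heavy chain, changed less, with 276 and 289 RPM in the control libraries and 288 and 273 RPM in APAP libraries (24 h, 48 h). On that scale the libraries overlapped, while in normalized reads (1527, 1608, 1400 and 1264) both APAP libraries lay below both control libraries. The fold was 0.917 (0.853 to 0.986) after 24 h, turning to 1.04 (0.971 to 1.12) with library totals, and it was 0.786 (0.730 to 0.846) after 48 h, or 0.945 (0.877 to 1.02) with library totals.

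The unequal course of the 2 heavy chains did not depend on scaling. Reads of H2-K1 per read of H2-D1 were 2.57 and 2.69 in the control libraries, and 1.99 and 1.86 in APAP libraries (24 h, 48 h). Both APAP ratios were below both control ratios, at 0.775-fold (0.710 to 0.846) after 24 h and at 0.690-fold (0.631 to 0.755) after 48 h. B2m per read of both heavy chains was 1.94 and 2.09 in the control libraries and 1.66 and 1.84 in the APAP libraries, 0.853-fold (0.811 to 0.896) and 0.880-fold (0.836 to 0.926). The last 300 transcript bases of H2-D1 match H2-K1 at 95.2% identity over 251 bases, and H2-K1 matches H2-T23 at 95.3% over 193 bases. Reads of these genes could thus have been exchanged in the counting, and the values of H2-K1 and H2-D1 are uncertain to that extent. H2-D1 further matches Cflar and Kdm2a in part of that stretch (95.3% over 148 bases and 96% over 125 bases).

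Summed normalized reads of B2m, H2-K1 and H2-D1 were 16036 and 18329 in the control libraries, and 11125 and 10247 in APAP libraries (24 h, 48 h). The fold of the sum was 0.694 (0.677 to 0.711) and 0.559 (0.546 to 0.573), and 0.790 and 0.672 with library totals. Against the other control pool the folds were 0.607 at 24 h and 0.639 at 48 h, so that both APAP libraries were below both controls. The order of the 2 folds turned when the control pools were exchanged. With the same control for both times, the APAP pool at 48 h was the lower. Its fold was then 0.639 beside 0.694 at 24 h (24 h control), and 0.559 beside 0.607 (48 h control). By gene, 9 of 9 folds were below 1 at 24 h by the size factors, and at 48 h H2-Eb1 and H2-DMa were above 1. Of all 12113 tested genes, 6012 were below 1 at 24 h and 6220 at 48 h.

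**Figure D3:**
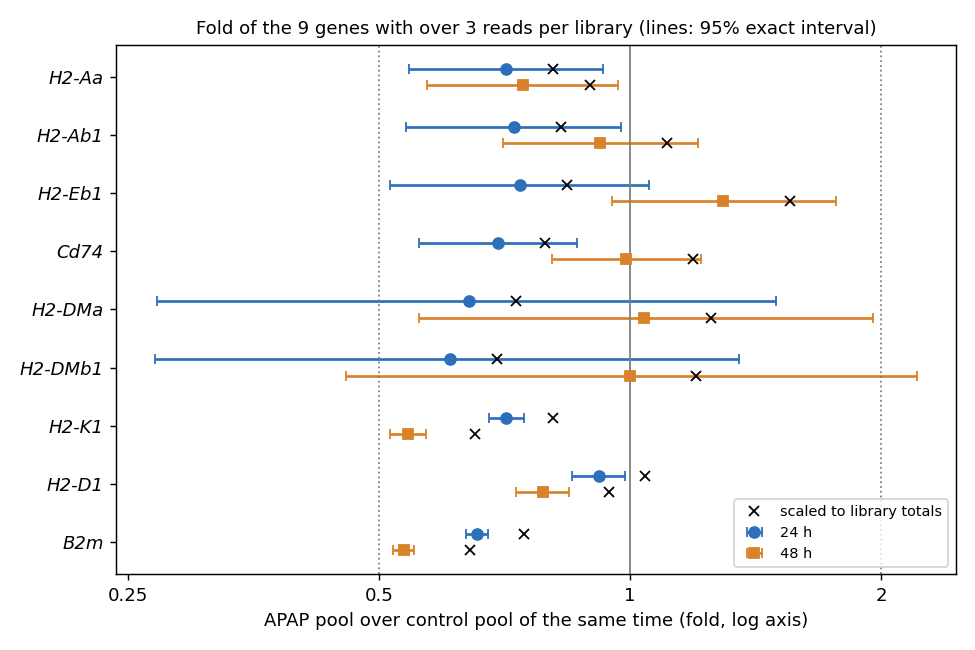
Fold of APAP over control of the same time (logarithmic axis) for the 9 genes with over 3 reads in every library, at 24 h (blue circles) and 48 h (orange squares), with 95% exact intervals as lines, the fold scaled to library totals as black crosses, and dotted lines at 0.5 and 2. B2m and H2-K1 move further from 1 at 48 h (0.535 and 0.542), H2-Eb1 crosses to the other side (0.738 to 1.29), and no interval lies wholly beyond 2-fold.

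Other class I genes lay mostly below control. Of 19 other class I and class I-like genes, 17 had an entry and 10 were tested. At 24 h 1 of them and at 48 h 2 of them were called lower (0 and 1 with library totals), and 0 were called higher. Of all genes, 4.99% were called lower at either time. The interval lay below 1 for 8 of 10 at either time, against 18.3% and 18.9% of all genes. With library totals the intervals of H2-T22 and Cd1d1 reached 1 at both times, and that of H2-T23 at 24 h. The median fold was 0.723 at 24 h and 0.613 at 48 h, or 0.823 and 0.737 with library totals. H2-Q10, a class I molecule secreted by the liver, had 5715 and 8372 reads in the control libraries and 4928 and 4357 reads in APAP libraries (24 h, 48 h). Its fold was 0.646 (0.622 to 0.671) and then 0.455 (0.439 to 0.472), the latter 0.547 and not past 2-fold with library totals, and the control libraries differed 1.38-fold. The H2-K1 ratio to H2-Q10 was 0.604, 0.482, 0.664 and 0.574 in the same order of libraries. H2-Q6 was called lower at 24 h (0.477, 0.262 to 0.849) on 33 control and 21 APAP reads, a call that was lost with library totals (0.543). H2-Q1 was called lower at 48 h (0.368, 0.192 to 0.676), where its control pool held 38 reads against 9 in the other control pool. H2-Q and H2-T genes are near copies of each other, and their single values are uncertain.

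Immunoproteasome genes, which code for the proteasome subunits and activator that shape class I peptides, were below control in 5 of 5 genes at both times, except that Psmb10 (1.05) and Psme2 (1.07) turned at 48 h with library totals. The median fold was 0.566 at 24 h and 0.645 at 48 h (0.645 and 0.776 with library totals). The interval lay below 1 for 5 genes at 24 h and for 3 at 48 h, against 18.3% and 18.9% of all genes. With library totals the 24 h intervals of Psmb10 and Psme2 reached 1. Of all 12113 tested genes, 6012 had a fold below 1 at 24 h and 6220 at 48 h. Psmb8, a catalytic subunit, had 229 and 268 reads in the control libraries and 142 and 171 reads in APAP libraries (24 h, 48 h). It was called lower at 24 h (0.465, 0.374 to 0.575) and was at 0.558-fold (0.458 to 0.678) after 48 h. Psmb9, its neighbour in the MHC region, had 78 and 104 reads in the control libraries and 45 and 53 reads after APAP, and was called lower at both times (0.432, 0.293 to 0.632, and 0.446, 0.314 to 0.626). With library totals Psmb8 at 24 h (0.529) and Psmb9 at 48 h (0.536) no longer passed 2-fold. Each of the 5 genes had the highest normalized reads in a control pool, and their sum was 1224 and 1484 in the control libraries and 702 and 990 in the APAP libraries.

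Of 8 genes of class I peptide loading, all tested, 0 were called at either time, and the median fold was 0.835 at 24 h and 0.973 at 48 h. At 24 h the interval lay below 1 for 4 genes and above 1 for 1. The 4 lower genes carry peptides into the endoplasmic reticulum or prepare and hold them there, namely Tap1 (0.667, 0.445 to 0.999), Tap2 (0.533, 0.35 to 0.806), Tapbp (0.623, 0.546 to 0.710) and Erap1 (0.738, 0.575 to 0.947). With library totals the intervals of Tap1 and Erap1 reached 1. At 48 h their folds were 0.735, 0.913, 1.03 and 0.779. The 2 genes with the most reads in this list are general chaperones. Calr, the chaperone calreticulin, had 3954 and 2453 reads in the control libraries and 7957 and 4088 reads in APAP libraries (24 h, 48 h). Its fold was 1.51 (1.45 to 1.57) and 1.46 (1.39 to 1.53), while the control libraries differed 0.585-fold (48 h over 24 h). Canx, the chaperone calnexin, was at 0.997-fold and 1.12-fold.

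Endosomal processing genes of the class II route were higher where they were called. Of 7 genes, 6 were tested, of which 1 was called higher at 24 h and 3 at 48 h, with a median fold of 1.16 and 1.89 and 0 called lower. Of all genes, 4.89% were called higher at 24 h and 4.79% at 48 h, and 4.99% lower at either time. At 24 h 3 of the 6 folds were below 1. Ctss, cathepsin S, which degrades the invariant chain in antigen-presenting cells, had 65 and 79 reads in the control libraries and 115 and 232 reads in APAP libraries (24 h, 48 h). The APAP pool at 48 h stood above the rest, with a fold of 2.57 (1.98 to 3.36) against 1.33 (0.970 to 1.83) in the 24 h comparison. Ifi30, a thiol reductase that unfolds antigens, was at 0.905-fold (0.607 to 1.36) after 24 h and was called higher at 48 h (2.34, 1.61 to 3.45). Lgmn, an asparaginyl endopeptidase, was called higher at both times (2.30, 1.85 to 2.87, and 2.56, 2.07 to 3.19). Reads of Ctss per read of Cd74 were 0.363 and 0.436 in the control libraries and 0.693 and 1.13 in the APAP libraries, 1.91-fold (1.30 to 2.81) and 2.59-fold (1.85 to 3.64) higher. The protease and the chain it degrades thus did not move together.

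**Figure D4:**
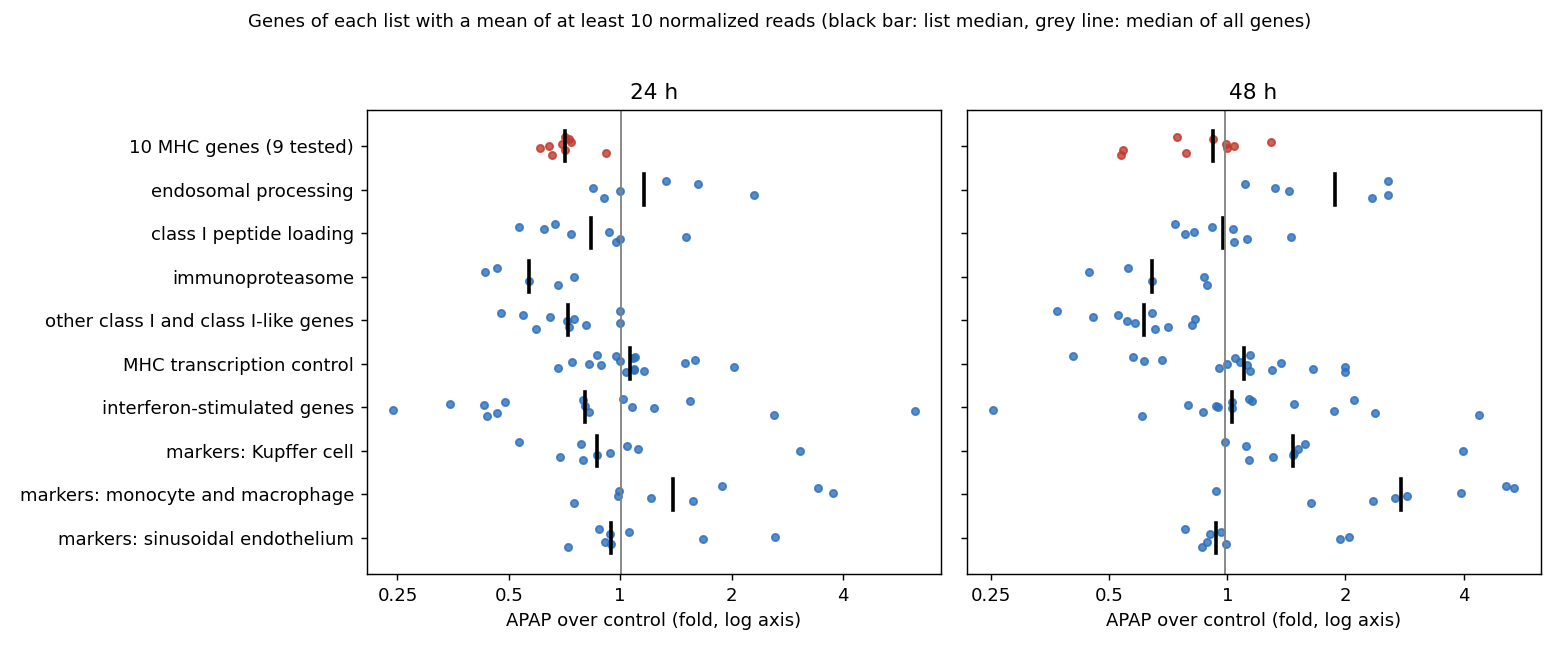
Fold of APAP over control (logarithmic axis) after 24 h and 48 h for list genes whose mean reached 10 normalized reads, 1 point per gene, with the list median as black bar and the median of all genes (1.01 and 0.990) as grey line. With the size factors used here, the immunoproteasome points all lie below 1 at both times (medians 0.566 and 0.645). Psmb10 and Psme2 turn at 48 h with library totals. The medians of endosomal processing (1.16 and 1.89) and of monocyte and macrophage markers (1.39 and 2.78) lie higher. At 24 h, 3 of 6 endosomal processing points and 3 of 8 monocyte and macrophage points lie below 1.

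Among 18 regulators of MHC transcription, 16 were tested, with a median fold of 1.06 at 24 h and 1.10 at 48 h. Irf8, a factor of myeloid and dendritic cells, was the 1 gene called, higher at 24 h (2.03, 1.14 to 3.77, with 17 control and 46 APAP reads), and it was at 1.99-fold (1.12 to 3.68) after 48 h. With library totals Irf8 (2.39) and Jak2 (2.40), a kinase of interferon receptors, were called higher at 48 h. Ifng, the cytokine that drives both classes, had 0, 1, 0 and 0 reads in the order control 24 h, control 48 h, APAP 24 h, APAP 48 h. Interferon-stimulated genes were called in both directions, with 2 higher and 6 lower at 24 h (2 and 3 with library totals) and 3 higher and 1 lower at 48 h, of 15 tested (17 listed). Cxcl9, a chemokine induced by interferon gamma, was called lower at both times (0.243, 0.115 to 0.476, and 0.253, 0.125 to 0.477). Rsad2, an antiviral gene that answers to type I interferon, was called higher at both times (2.61, 1.62 to 4.34, and 4.37, 2.19 to 9.67). Cxcl10, another interferon-induced chemokine, was called higher at 24 h (6.24, 1.9 to 32.3) on 3 control and 25 APAP reads, and was at 1.87-fold (0.719 to 5.43) after 48 h. Gbp2, a guanylate-binding protein, was called lower at 24 h (0.346, 0.108 to 0.975) on 13 control and 6 APAP reads, not so with library totals. Costimulatory ligands were mostly too sparse, with 1 of 7 genes tested. That gene, Icam1, an adhesion molecule, was at 1.93-fold (1.28 to 2.98) and 1.67-fold (1.08 to 2.63) and was not called, but it was with library totals (2.20 and 2.01).

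Macrophage markers differed among themselves in how they compared with the class II genes. The 10 monocyte and macrophage markers summed to 498 and 554 normalized reads in the control libraries and to 850 and 1546 in APAP libraries (24 h, 48 h), a fold of 1.71 (1.52 to 1.91) and 2.79 (2.53 to 3.09). Of these, 8 were tested, and 2 at 24 h (3 with library totals, by Cd68) and 6 at 48 h were called higher. Lyz2, lysozyme of myeloid cells, was 3.42-fold (2.70 to 4.39) and 5.39-fold (4.38 to 6.67) higher, and Cd68, a lysosomal macrophage protein, was 1.88-fold (1.40 to 2.56) and 5.11-fold (3.87 to 6.86) higher. Cd74 per read of Lyz2 was 2.13 and 1.69 in the control libraries and 0.432 and 0.311 in the APAP libraries, 0.203-fold (0.146 to 0.282) and 0.184-fold (0.137 to 0.247). The class II sum per read of Cd68 was 7.64 and 8.95 in the control libraries and 2.86 and 1.68 after APAP, 0.375-fold (0.269 to 0.519) and 0.188-fold (0.137 to 0.255). The groups did not overlap in either ratio, but Lyz2 and Cd68 had the largest called folds of their list at 48 h. The ratio to C1qa, a complement gene of resident macrophages, differed less, as the class II sum per read of it was 1.80, 1.87, 1.36 and 1.21 in the same order of libraries, 0.754-fold (0.611 to 0.929) and 0.648-fold (0.534 to 0.785). Other macrophage genes lay nearer to the class II sum. Clec4f, a lectin of Kupffer cells, was at 0.534-fold (0.441 to 0.645) and 0.985-fold (0.831 to 1.17), and C1qc at 0.689-fold (0.573 to 0.828) and 1.31-fold (1.11 to 1.54). Csf1r was at 0.995-fold and 0.936-fold. Csf1r codes for the receptor for macrophage colony-stimulating factor. The class II sum per read of it was 3.65, 2.87, 2.59 and 2.94 in the same order of libraries, so that the groups overlapped. This ratio was 0.710-fold (0.544 to 0.926) after 24 h and 1.03-fold (0.807 to 1.30) after 48 h.

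**Figure D5:**
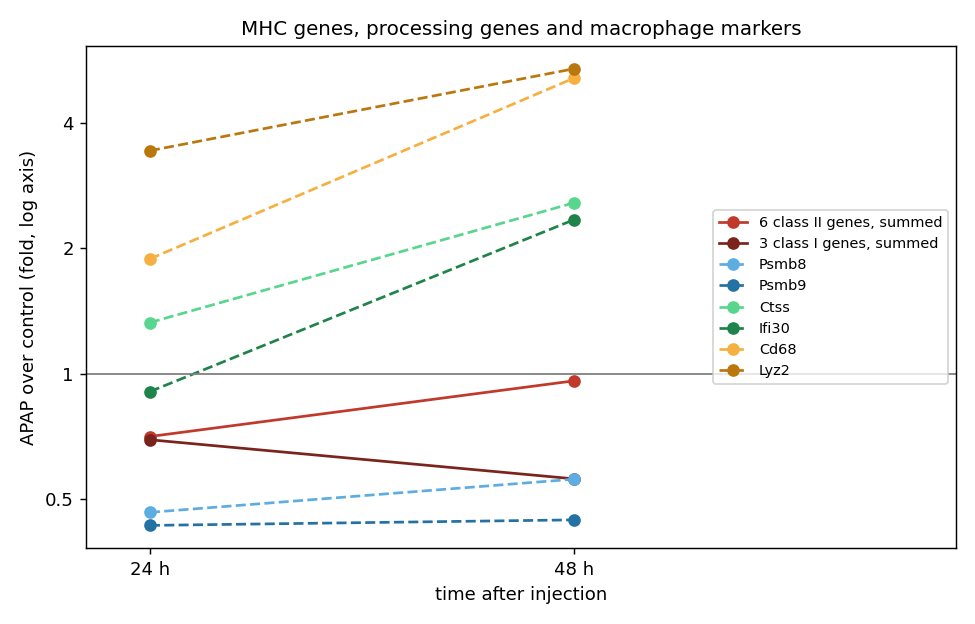
Fold of APAP over control (logarithmic axis) after 24 h and 48 h for the summed class II and class I genes (solid lines) and for single processing genes and macrophage markers (dashed lines), 1 point per time. Lyz2 (3.42 and 5.39) and Cd68 (1.88 and 5.11) lie above 1 at both times, Psmb8 and Psmb9 below 1, and the class II sum goes from 0.706 to 0.961. Of the monocyte and macrophage markers only Lyz2 and Cd68 are drawn, which had the largest called folds at 48 h. Of the 8 tested markers of that list, 5 lay above 1 at 24 h and 7 at 48 h, and Csf1r was at 0.995 and 0.936.

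The remaining marker lists are given by their sums of normalized reads, in the order control 24 h, control 48 h, APAP 24 h, APAP 48 h. Kupffer cell markers (9 of 9 tested) summed to 1653, 1553, 1498 and 2205, with folds of the 9 genes from 0.534 to 3.06 at 24 h and from 0.985 to 3.99 at 48 h. Of these, 1 gene, the scavenger receptor Marco, was called higher at each time. Sinusoidal endothelial markers (8 of 8 tested) summed to 920, 1029, 917 and 1017. At 48 h the fold of the sum was 1.42 (1.33 to 1.52) for the first and 0.988 (0.905 to 1.08) for the second list. Dendritic cell markers were near the limit of detection, with 1 of 10 genes tested, and their sum was 31.8, 47.2, 42.6 and 46.9. Its fold was 1.34 (0.826 to 2.21) and 0.994 (0.649 to 1.53). Single genes of this list went either way on few reads, as Clec9a had 0, 2, 13 and 4 reads, Flt3 had 3, 0, 8 and 6, and Itgax had 0, 4, 6 and 6, while Cd209a (2, 2, 0 and 0) and Ccr7 (1, 2, 0 and 0) were at 0 in both APAP libraries. B cell markers summed to 135, 151, 37.5 and 31.9, a difference that came from 1 gene, Ighm, the immunoglobulin mu chain (105 and 127 control reads, 23 and 16 APAP reads). Without Ighm, the B cell list held 14, 14, 21 and 18 reads. T and NK cell markers summed to 44.3, 37.5, 30.7 and 35.6, with Cd8a at 0 in all libraries, and neutrophil markers to 18.2, 19.3, 215 and 171. Stellate cell markers (6 of 6 tested) summed to 431, 481, 545 and 808, with Col1a1 (4.50) and Des (2.22) called higher at 48 h. By the size factors, 4 of the 6 lay above 1 and 2 below 1 at each time. The lower genes were Lrat (0.557 at 24 h and 0.832 at 48 h) and Reln (0.957 and 0.846). Cholangiocyte markers (2 of 5 tested) summed to 143, 181, 398 and 307, with Sox9 called higher at 24 h (3.97) and Spp1 at 48 h (2.14). The untested genes were sparse, with 6, 13, 8 and 8 reads for Krt19, 8, 8, 15 and 2 for Krt7, and 2, 10, 5 and 7 for Epcam. Each of them had fewer reads in the APAP pool at 48 h than in its control. The part of any of these cell types in the levels of the MHC genes was not tested.

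By likeness of pattern over the 4 libraries, the genes closest to the class II members (mean of H2-Aa, H2-Ab1, H2-Eb1 and Cd74) were Fmo1, Gm20425, Pbld2, Tob1 and Tm2d2, at Euclidean distances of 0.016 to 0.074 in centred log2 normalized reads, among 4339 genes whose mean reached 100 normalized reads. Fmo1, a flavin monooxygenase, had folds of 0.716 and 0.974. Closest to the class I members (H2-K1, H2-D1 and B2m) were Ireb2, Hadha, Uqcrc1, Phyhd1 and Galnt7, at distances of 0.038 to 0.056. Hadha, a subunit of the mitochondrial trifunctional protein, had folds of 0.758 and 0.625. Such a likeness over 4 libraries is a description only.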

How the data were processed

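Per the methods, RNA of each pool was converted to 3′ end libraries (MACE) with unique molecular identifiers. The authors used these to remove duplicates, ran cutadapt, cut off poly(A) ends, mapped to mm10 and deposited read counts per gene (HTSeq, not normalized). Versions are not given in the sources used here. The deposited table also holds RPM and the authors' comparisons (log2 ratios, p-values, FDR), which were not used. Entries for antisense transcripts are listed apart, so counting used strand.

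Counts were divided by DESeq2 1.42.0 size factors (0.880 and 0.933 for control, 1.17 and 1.07 for APAP pools at 24 h and 48 h) in R 4.3.3, with edgeR 4.0.16 (TMM) as an alternative. RPM, folds and exact (Clopper-Pearson) intervals of the share of reads were computed in Python 3.11.15 (numpy 2.4.6, scipy 1.17.1, pandas 2.3.3), and plots drawn with matplotlib 3.10.9. Intervals and the limit from a count of 0 (3 reads) cover counting error only. Tested genes had a mean of at least 10 normalized reads, and a call needed a fold of at least 2 with an interval on 1 side of 1. No fold was given where both counts were at or under 3 reads. Only the folds, their intervals and the calls were tested on simulated counts with known folds first.

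The 10 members, the 18 gene lists and the motif letters were chosen with earlier results of these data known. The text names all members, up to 4 called genes of a list by largest fold, or else up to 2 with the most reads, and the 5 genes nearest in pattern to each class. Beyond that rule, genes of the marker lists were named for their ratios to the class II genes or for counts of 0. Sparse genes, Jak2, Ttr, Lrat, Reln, H2-T22, H2-T23, Cd1d1, Psmb10, Psme2 and lower genes of peptide loading were named for their values. All of these were named after the values were seen. Positions came from GENCODE M21 (GRCm38, 10 of 10 matched), promoters from RefSeq, and shared 3′ ends from blastn 2.17.0 (identity of 95% or more across 100 or more bases).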

Additional observations from a re-analysis of the deposited data

Results flagged for a closer look

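For 5 genes the folds at 24 h and 48 h differed beyond counting error, since the ratio of the 48 h fold to the 24 h fold had an interval without 1. This ratio was 1.75 (1.09 to 2.83) for H2-Eb1 and 1.43 (1.05 to 1.93) for Cd74, both class II genes whose fold was larger at 48 h. It was below 1 for the class I genes, at 0.763 (0.712 to 0.819) for H2-K1, 0.857 (0.772 to 0.951) for H2-D1 and 0.817 (0.783 to 0.852) for B2m. For the class I sum it turned from 0.806 to 1.05 with the control pools exchanged. The ratio compares 4 libraries, not mice, and each time has its own control pool.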

How the results depend on the processing

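No paired analysis was possible because each group had 1 library and the labels give no replicate numbers. The number of genes called was 0 at both times. At 24 h it was 1 (H2-DMa, lower) against the other control pool, 1 at a 1.5-fold threshold and 6 by the interval alone. At 48 h it was 2 at 1.5-fold and 4 by the interval alone. Fewer intervals lay below 1 with library totals at both times, and that of H2-Eb1 at 48 h lay above 1. With library totals the class II sum was at 0.804 (24 h) and 1.15 (48 h), the class I sum at 0.790 and 0.672, and the class I ratio of folds at 0.851. The class I sum at 24 h was at 0.607 against the other control pool and 0.646 against both control pools summed, and at 48 h at 0.639 and 0.595. The class I ratio of folds turned to 1.05 with the control pools exchanged, and H2-D1 at 24 h to 1.04 with library totals. The control pools differed 1.17-fold in B2m. For folds of single genes, 95 of 108 alternative values stayed within the counting interval, 12 left it, and 1 turned from a fold whose interval excluded 1 (H2-D1). In all, 6 values crossed 1, the other 5 for H2-Ab1, Cd74 and H2-DMb1 at 48 h, whose intervals held 1. TMM, a floor of 10 reads and a pseudocount of 1 moved no fold beyond its interval. Depth limits H2-DMa, H2-DMb1 and Ciita.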

Other observations

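The APAP pools were also set against each other, although they differ in time and have controls of their own. From 24 h to 48 h after APAP, H2-DMa was 2.29-fold (1.11 to 5.01) higher on 12 and 25 reads, H2-Eb1 1.83-fold (1.33 to 2.53), H2-Ab1 1.38-fold (1.05 to 1.84) and Cd74 1.36-fold (1.10 to 1.68). H2-K1 was at 0.842-fold (0.799 to 0.887), H2-D1 at 0.903-fold (0.839 to 0.971) and B2m at 0.957-fold (0.927 to 0.988). The intervals of H2-Aa (1.07, 0.815 to 1.41) and H2-DMb1 (1.35, 0.611 to 3.06) held 1. Among processing genes in the same contrast, Ctss was 2.22-fold (1.77 to 2.80) and Ifi30 2.03-fold (1.46 to 2.85) higher. Tapbp, tapasin, which holds class I molecules at the TAP transporter, was 1.74-fold (1.54 to 1.98) higher and had been at 0.623-fold (0.546 to 0.710) of control at 24 h. Tapbp, Ctss and Ifi30 were named here after their values were seen.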
